A study of Mus musculus with 30 samples.

Results

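Fgf ligands and receptors are described here through 6 of the 22477 genes in a table of RNA-seq expression, taken by their symbols. They comprise 4 ligands (Fgf4, Fgf5, Fgf8 and Fgf15) and 2 receptors (Fgfr1 and Fgfr2), and all 6 were found in the table. Expression was measured in polyadenylated RNA of mouse secondary iPSCs, which are induced pluripotent stem cells that carry doxycycline (dox)-inducible transgenes for Oct4, Sox2, Klf4 and cMyc (OSKM). All 15 conditions used the same kind of cell, which has GFP placed in the Nanog locus and a nuclear RFP that is always on, maintained in serum/LIF on CF1 mouse embryonic fibroblasts (MEFs). In 7 conditions, which make up the time course, RNA was taken 0, 24, 36, 48, 60, 72 and 96 h after cells were moved from 2i/LIF to N2B27 medium. In the other 8 conditions, cells differentiated for 0, 24, 48 or 96 h were re-seeded as single cells and kept 48 h in serum/LIF, either with dox to induce OSKM (+dox) or with none (–dox). A condition of this second kind is named by its hours of differentiation, so that 48 h –dox had 48 h of differentiation before 48 h in serum/LIF.

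There are 30 samples, 2 per condition, but the table merges both replicates of a condition into a single FPKM value per gene (fragments normalised to transcript length and to the number of mapped fragments). Spread, tests and p-values are therefore missing for every value below, and neighbours in an order of levels cannot be separated from replicate error. A gene was counted as higher or lower when the plain ratio of its values was at least 2 and the higher value was at least 1 FPKM, and "rose" or "fell" below refers to that rule. Summed FPKM ran from 603278 to 832607 per condition and 2756 to 5090 genes were listed at 0. The number of reads is not known. The smallest values of single-transcript genes, multiplied by transcript length in kb, give a rough relative step of 0.0199 to 0.0231 FPKM in the 4 conditions re-seeded from 0 and 24 h and of 0.042 to 0.0674 FPKM in the other 11, so the first 4 resolve lower values. In RNA from a whole culture, fewer cells of a type and less RNA per cell cannot be told apart. Whether the cells sequenced grew on MEFs or on gelatin is not given in the sources used here. The 20 fibroblast markers summed to 1080 FPKM at 0 h (19 of 20 at 1 FPKM or more, none at 0), to 122 FPKM at 24 h and to between 39.9 and 70.3 FPKM from 36 to 96 h. After re-seeding they summed to between 26.5 and 50.5 FPKM in 7 conditions and to 185.8 FPKM in 96 h –dox. The 13 naive pluripotency markers summed to 1799 FPKM before withdrawal and 109 FPKM after 96 h. The list includes Sox2 and Pou5f1, which encodes Oct4, and these are not particular to the naive state. Nanog stood at 227 FPKM at 0 h and 14.5 FPKM at 96 h. Pou5f1 stood at 199 FPKM at 0 h, 279 at 24 h and 25.5 FPKM at 96 h.

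Fibroblast growth factors (Fgfs) are secreted proteins that bind receptor tyrosine kinases (Fgfrs) together with heparan sulfate or, for the endocrine members, a Klotho protein. The activated receptor recruits adaptors such as Frs2 and Grb2 and signals through Ras and the Raf, MEK and ERK kinases, whose target genes include inhibitors of the same pathway. In mouse pluripotent cells, Fgf4 made by the cells themselves drives ERK activity and readiness to differentiate, and one of the inhibitors in 2i medium blocks MEK. Fgf5 is a classical marker of the epiblast after implantation.

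Over the time course the ligands exchanged rank. Fgf4 fell 26.6-fold from 0 to 96 h, while Fgf5 rose 77.3-fold, Fgf8 rose 23.6-fold and Fgf15 rose 9.25-fold. Both receptors rose, Fgfr2 by 25.3-fold and Fgfr1 by 2.21-fold. Between 0 and 96 h all 6 members were changed (5 higher, 1 lower), beside 33.3% of the 13394 genes that reached 1 FPKM, and between any 2 of the 7 timepoints also 6 of 6, beside 60.7% of genes. Fgf5, Fgf8 and Fgf15 started from only 0.164, 0.190 and 0.218 FPKM, or 3.58 to 6.62 steps, so their folds are uncertain. With 1 FPKM added their log2 ratios went from 6.27 to 3.55, 4.56 to 2.21 and 3.21 to 1.31. With 1 FPKM required in both values only Fgf4, Fgfr1 and Fgfr2 were called, and with 5 FPKM in the higher value these 3 and Fgf5. In 96 h against 24 h, which leaves out 0 h, where the fibroblast markers were highest, 5 of 6 were changed, and Fgf5 was the exception at 1.23-fold. The share of all genes changed was not computed for this pair. The fibroblast markers still summed to 122 FPKM at 24 h, against 51.2 FPKM at 96 h.

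Fgf4 lies at chr7:144847367-144865243 on the plus strand (mm10, Gencode M21) and is a paracrine ligand of the early embryo and a known target of Oct4 and Sox2. It stood at 82.6 FPKM at 0 h, 79.1 at 24 h, 63.6 at 36 h, 38.6 at 48 h, 31.6 at 60 h, 20.9 at 72 h and 3.11 FPKM at 96 h. Each timepoint was lower than the one before it, but no single interval reached 2-fold until the last, which was 6.73-fold. Among the 15 conditions Fgf4 was highest in 0 h –dox, at 84.1 FPKM, and lowest in 96 h –dox, at 0.581 FPKM.

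Fgf5 lies at chr5:98254184-98277030 on the plus strand. It stood at 0.164 FPKM at 0 h, 10.3 at 24 h, 35.1 at 36 h, 37.3 at 48 h, 19.8 at 60 h, 23.1 at 72 h and 12.7 FPKM at 96 h. It thus rose 63-fold in the first interval and 3.4-fold in the next, was highest at 48 h, and did not change by 2-fold in any later interval. All 9 formative pluripotency markers also rose between 0 and 24 h, beside 23% of all genes changed. They summed to 79.5 FPKM at 0 h, 1243 at 36 h, 1205 at 48 h and 268 FPKM at 96 h. Dnmt3a and Dnmt3b made up most of the 48 h sum, at 292.2 and 585.5 FPKM. Some single markers had other courses. Zic2 was highest at 72 h, at 78.1 FPKM, and Foxd3 was lower at 96 h (0.303 FPKM) than at 0 h (7.50 FPKM). At 48 h Fgf4 and Fgf5 stood at a ratio of 1.03 in FPKM, against 505 at 0 h and 0.246 at 96 h.

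The sequences just before the starts of these ligands are shown because Fgf4 and Fgf5 are the main ligands of the time course and move apart in it. The sequences are 250 bases from RefSeq (GRCm38.p6, the mm10 build), 5′ to 3′ on the gene's strand and ending at the base before the annotated start. Of the 6 members, 3 had an entry there. The Fgf4 window is chr7:144861136-144861385, inside the longer span that Gencode M21 gives the gene, and the Fgf5 window is chr5:98253934-98254183. Capitals mark every match, on either strand, to 6 short motifs: the GC box GGGCGG, the CCAAT box, the TATA box TATAAA with its variant TATATA, the Sox core ACAAAG and the octamer ATTTGCAT.
Fgf4: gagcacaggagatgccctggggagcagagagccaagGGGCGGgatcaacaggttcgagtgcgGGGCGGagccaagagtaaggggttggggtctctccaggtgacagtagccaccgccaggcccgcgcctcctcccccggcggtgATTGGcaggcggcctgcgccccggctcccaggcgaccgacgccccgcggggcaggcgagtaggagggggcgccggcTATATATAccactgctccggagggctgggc
Fgf5: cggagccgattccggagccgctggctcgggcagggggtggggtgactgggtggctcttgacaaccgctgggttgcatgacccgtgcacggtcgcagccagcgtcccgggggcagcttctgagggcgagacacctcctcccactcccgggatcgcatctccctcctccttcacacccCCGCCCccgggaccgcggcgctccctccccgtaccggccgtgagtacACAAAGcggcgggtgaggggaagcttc
The Fgf4 window holds the GC box at -214 and -188 bases from the start, the CCAAT box on the minus strand at -106 and a pair of overlapping matches to the TATA variant at -30 and -28. The Fgf5 window holds the GC box on the minus strand at -74 and the Sox core at -27. Among 32851 RefSeq windows of the same length, 32.7% hold the GC box, 33.8% the CCAAT box, 12.4% the TATA box, 5.25% its variant, 16.5% the Sox core and 1.6% the octamer. Both windows are rich in G and C, at 71.2% for Fgf4 and 70.8% for Fgf5, beside a median of 52.4% over all windows. The matches are descriptions of letters and do not identify bound sites. Only these 250 bases were searched, so motifs elsewhere in or near either gene would not be seen.

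Fgf8, at chr19:45736798-45742915 on the minus strand, is a ligand of the primitive streak and of signalling centres in the later embryo. It stood at 0.190 FPKM at 0 h, 0.348 at 24 h, 0.298 at 36 h, 0.975 at 48 h, 0.847 at 60 h, 2.07 at 72 h and 4.49 FPKM at 96 h. It passed 1 FPKM only at the last 2 timepoints, and both of the last intervals were rises, of 2.45-fold and 2.16-fold. The 10 primitive streak and mesoderm markers summed to 25.9 FPKM at 0 h, where Fgf8 was lowest, and to 1.93 to 3.36 FPKM from 24 to 96 h. T, which defines the streak, was 2.85 FPKM at 0 h and at most 0.531 FPKM from 24 to 96 h. Of the 8 neurectoderm markers, 6 reached 1 FPKM at 0 or 96 h and 5 rose, beside 33.3% of all genes changed, with Sox1 at 1.02 and 13.3 FPKM.

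Fgf15, at chr7:144896531-144900953 on the plus strand, is the mouse counterpart of human FGF19 and belongs to the endocrine ligands. It stood at 0.218 FPKM at 0 h, 4.50 at 24 h, 7.17 at 36 h, 4.93 at 48 h, 2.82 at 60 h, 3.49 at 72 h and 2.02 FPKM at 96 h. Within the time course it was, like Fgf5, lowest at 0 h and rose in the first interval, by 20.6-fold, but its highest value came at 36 h. The endocrine co-receptors Kl and Klb were below 1 FPKM in all 15 conditions, with Klb highest at 0.984 FPKM at 0 h.

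By the Gencode M21 spans, Fgf15 begins 31288 bases after the end of Fgf4 on the same strand, and Fgf3 ends 2931 bases before Fgf4 begins. The RefSeq start of Fgf4 used above lies inside its span and so further from Fgf3. Over the time course Fgf3 went from 3.02 FPKM at 0 h to 0.655 at 24 h and 0.301 FPKM at 96 h. Ano1, on the other side of Fgf3, stayed at or below 0.349 FPKM over the time course. Ccnd1, which encodes cyclin D1 and lies beyond Fgf15 and LTO1, went from 43.2 FPKM at 0 h through 79.1 at 24 h to 23.2 after 96 h. The neighbouring genes therefore had different courses, with Fgf3 and Fgf4 highest at 0 h, Ccnd1 at 24 h and Fgf15 at 36 h.

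Fgfr1, at chr8:25513654-25575718 on the plus strand, and Fgfr2, at chr7:130162451-133123350 on the minus strand, encode receptors that each exist in splice forms with different ligand preferences. Fgfr1 stood at 21.5 FPKM at 0 h, 22.2 at 24 h, 25.5 at 36 h, 29.9 at 48 h, 33.9 at 60 h, 43.8 at 72 h and 47.4 FPKM at 96 h. Fgfr2 stood at 2.38 FPKM at 0 h, 4.88 at 24 h, 11.2 at 36 h, 12.0 at 48 h, 25.6 at 60 h, 40.9 at 72 h and 60.1 FPKM at 96 h. No timepoint of either receptor was below the one before it. Fgfr1 never moved by 2-fold in an interval, whereas Fgfr2 rose in 3 of the 6, between 0 and 24 h, 24 and 36 h, and 48 and 60 h. The ratio of Fgfr1 to Fgfr2 went from 9.04 at 0 h to 1.07 at 72 h and 0.789 at 96 h. Fgfr1 had its lowest value of the 15 conditions at 0 h, where the fibroblast markers were highest.

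**Figure D1:**
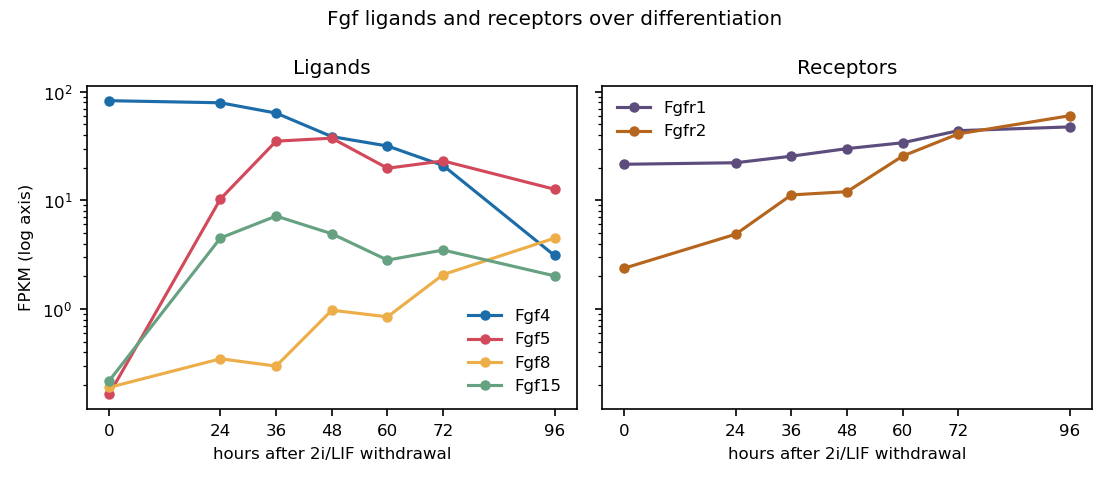
FPKM on a log axis against hours after 2i/LIF withdrawal for the ligands (left) and the receptors (right), with 1 point per timepoint that combines 2 replicates, so no error can be drawn. Fgf4 and Fgf5 meet at 48 h, at 38.6 and 37.3 FPKM, Fgf4 then drops to 3.11 FPKM at 96 h, and Fgfr2 climbs from 2.38 to 60.1 FPKM, past Fgfr1.

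By interval, 3 of the 5 members that reached 1 FPKM rose between 0 and 24 h (Fgf5, Fgf15 and Fgfr2), beside 23% of all genes changed in either direction. Between 24 and 36 h, 2 of 5 rose (Fgf5 and Fgfr2), beside 11.7%. Between 36 and 48 h none of 5 changed, beside 4.79%. Fgfr2 alone of 5 rose between 48 and 60 h, beside 9.24%, and Fgf8 alone of 6 between 60 and 72 h, beside 5.24%. Between 72 and 96 h, Fgf8 rose and Fgf4 fell among 6, beside 10.1%. With so few members, these counts are descriptions.

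Summed over 18 secreted ligands (the 4 members with 12 other paracrine and 2 other endocrine ligands), Fgf transcripts stood at 96.8, 110 and 31.1 FPKM at 0, 36 and 96 h. Fgf4 made up 85.3% of that sum at 0 h, 44.8% at 48 h and 9.99% at 96 h. Fgf5 made up 0.169%, 43.3% and 40.7% at the same times, and it replaced Fgf4 as the highest ligand at 72 h. The 4 Fgfr genes went from a sum of 24.4 FPKM to one of 110 FPKM between 0 and 96 h, so that the receptor sum went up while the ligand sum went down. Fgfr3 and Fgfr4 together never exceeded 2.63% of the receptor sum in the time course.

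Of the 12 other paracrine ligands, 4 reached 1 FPKM at 0 or 96 h. Fgf3, Fgf7 and Fgf10 fell and Fgf17, a close relative of Fgf8, rose, beside 33.3% of all genes changed. Fgf10, a mesenchymal ligand that binds the epithelial form of Fgfr2, went from 4.44 to 0.345 FPKM in the first 24 h, and Fgf7, of the same kind, from 2.43 to 0.692 FPKM. In the same interval 17 of the 20 fibroblast markers fell and 1 rose, beside 23% of all genes changed. The part of fibroblast RNA in these ligands was not tested. Fgf17 stood at 1.39 FPKM at 0 h, 0.660 at 48 h, 5.49 at 72 h and 4.11 FPKM at 96 h. Fgf2 and Fgf1, ligands often added to cultures, stayed at or below 0.553 and 0.459 FPKM over the time course.

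Among other receptors, Fgfr3 rose from 0.0465 to 2.27 FPKM over the time course, Fgfr4 did not exceed 0.519 FPKM, and Fgfrl1, a receptor without a kinase domain, stood between 3.40 and 6.79 FPKM. Esrp1, a splicing regulator that favours the epithelial forms of Fgf receptors, rose from 2.45 FPKM at 0 h to 20.5 at 24 h and 36.5 FPKM at 96 h. Esrp2, its relative, was 4.77 and 6.74 FPKM at 0 and 96 h. Values per gene do not separate the receptor splice forms.

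The 18 adaptor and Ras-ERK cascade genes, among them Frs2 and Grb2, reached 1 FPKM in all 15 conditions and moved little. From 0 to 96 h, 2 rose (Sos2 and Mapk3, which encodes ERK1) and none fell, beside 33.3% of all genes changed. The median log2 ratio of these 18 genes was 0.18 beside -0.02 for all genes (1 FPKM added). The 14 measured ERK feedback inhibitors and targets moved more. Between 0 and 24 h, 8 of 14 rose and none fell, beside 23% of all genes changed, with a median log2 ratio of 1.02 beside -0.01 for all genes. Dusp6, a phosphatase of ERK, rose from 3.61 to 29.6 FPKM, Spry4, a feedback inhibitor, from 0.446 to 13.9 FPKM, and Egr1, an immediate early gene, from 0.614 to 11.2 FPKM. From 72 to 96 h, the interval in which Fgf4 fell, 6 of 14 fell and 1 rose, beside 10.1% of all genes changed, and the median log2 ratio was -0.75 beside 0.02. Dusp6 went from 60.2 to 17.6 FPKM, and Etv5, an ETS factor that responds to Fgf signals, from 70.5 to 15.9 FPKM. The riser, Dusp5, went from 19.7 to 42.8 FPKM.

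After 48 h in serum/LIF without dox, the members differed from the cells that had been re-seeded in ways that depended on how long those had differentiated. Medium, plating and time in culture differ together in this comparison and cannot be told apart. In 0 h –dox against 0 h, none of the 3 members that reached 1 FPKM changed, beside 22.1% of all genes. In 24 h –dox against 24 h, 4 of 6 changed (2 higher, 2 lower), beside 25.5%. In 48 h –dox against 48 h, 5 of 6 changed (2 higher, 3 lower), beside 26.8%. In 96 h –dox against 96 h, 3 of 6 were lower, beside 23.6%.

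Fgf4 in –dox cells stood at 84.1, 26.5, 9.14 and 0.581 FPKM after 0, 24, 48 and 96 h of differentiation. It was within 1.02-fold of the starting cells at 0 h, and 2.98-fold, 4.22-fold and 5.35-fold below them at the later times. Fgf5 stood at 0.287, 3.59, 17.2 and 0.346 FPKM, below its level before re-seeding by 2.87-fold at 24 h, 2.17-fold at 48 h and 36.6-fold at 96 h. In the 48 h –dox cells Fgf5 was the highest ligand and exceeded Fgf4, with a ratio of Fgf4 to Fgf5 of 0.531. All 9 formative markers were also lower in 48 h –dox than at 48 h, beside 26.8% of all genes changed, with a sum of 215 FPKM. With dox 4 of them were lower still and Otx2 was higher, beside 13% of all genes changed, and the sum was 151 FPKM. The formative markers summed to 368 FPKM in 24 h –dox, more than in 48 h –dox, while Fgf5 was lower there. Their part in the Fgf5 values was not tested.

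Fgf8 in –dox cells stood at 0.316, 3.15, 8.99 and 1.27 FPKM. It was 9.06-fold above the starting cells at 24 h and 9.22-fold above them at 48 h, but 3.53-fold below them at 96 h, and 8.99 FPKM was its highest value of all conditions. Fgf17, its relative, was also high in 24 h –dox and 48 h –dox, at 11.6 and 9.37 FPKM. T stood at 5.90 FPKM and Wnt3 at 3.28 FPKM in 48 h –dox, and the 10 primitive streak and mesoderm markers summed to 13.3 FPKM there. These markers summed to 4.49 to 5.76 FPKM in the other –dox conditions and to 25.9 FPKM at 0 h before re-seeding. Mesp1 and Gsc of that list were at 0 in 48 h –dox, and the part of such cells in the Fgf8 value was not tested. Of the 8 extraembryonic endoderm markers, Sox7, Sox17 and Dab2 were higher in 48 h –dox than at 48 h, beside 26.8% of all genes changed. With dox these 3 were lower again and Lama1 was higher, beside 13%. The list summed to 7.29 FPKM at 48 h, 28.9 without dox and 15.8 FPKM with it, Dab2 made up most of the 28.9 FPKM with 21.8, and their part in the Fgf8 value was not tested either. Fgf15 stood at 0.644, 4.34, 0.563 and 1.03 FPKM, and it was 8.75-fold below the starting cells at 48 h.

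Fgfr1 in –dox cells stood at 27.1, 31.7, 43.2 and 41.6 FPKM and was within 1.44-fold of the starting cells at each time. Fgfr2 stood at 3.29, 23.7, 30.3 and 60.8 FPKM, 4.86-fold above the starting cells at 24 h and 2.52-fold above them at 48 h. At 96 h both receptors were within 1.14-fold of the cells before re-seeding. The fibroblast markers were 185.8 FPKM in that condition against 51.2 FPKM at 96 h. Of the 20, 11 were higher and 3 lower, beside 23.6% of all genes changed, and their part in the receptor values was not tested.

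OSKM induction was compared with its absence at the same hours, where both sets of cells had 48 h in serum/LIF. The members split. At 24 and 48 h Fgf4 was higher with dox, by 3.13-fold and 5.91-fold, whereas Fgf5 was lower by 7.21-fold and 45.2-fold, Fgf8 by 6.79-fold and 18.6-fold, and Fgfr2 by 2.83-fold and 2.16-fold. At 96 h Fgf4, Fgf8 and Fgfr2 were not changed. Fgf5 could not be called there, since it was below 1 FPKM in both arms, at 0.346 FPKM without dox and 0.488 FPKM with it. The changed members numbered 1 of 3 at 0 h beside 9.23% of all genes, 4 of 6 at 24 h (1 higher, 3 lower) beside 6.27%, 5 of 6 at 48 h (2 higher, 3 lower) beside 13%, and 1 of 5 at 96 h beside 17.7%.

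Fgf4 in +dox cells stood at 81.1 FPKM after 0 h, 83.0 after 24 h, 54.0 after 48 h and 1.16 FPKM after 96 h. Relative to 0 h –dox, these are 96.4%, 98.7%, 64.3% and 1.38%, where the –dox cells had 31.5%, 10.9% and 0.691% after 24, 48 and 96 h. With dox the 24 and 48 h values lie above those of –dox, and at 96 h the ratio of 1.998 was just under the limit of 2. At 48 h Pou5f1 stood at 72.6 FPKM without dox and 204 FPKM with it, where endogenous and transgene RNA are not separated. Of the 12 naive markers that reached 1 FPKM, 9 were higher with dox at 48 h and none was lower, beside 13% of all genes changed. Pou5f1, Sox2 and Klf4 are among the 9 and are also OSKM transgenes, and the part of transgene RNA in their values was not tested. The others are Esrrb, Tfcp2l1, Nr0b1, Zfp42, Tbx3 and Dppa3.

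Fgf5 in +dox cells stood at 0.0095, 0.498, 0.381 and 0.488 FPKM. It was thus below 1 FPKM at all 4 times, while –dox cells reached 3.59 and 17.2 FPKM at 24 and 48 h. The value in 0 h +dox is about 1 step (1.03) and its ratio to –dox is not interpretable. Fgf8 stood at 0.970, 0.465, 0.484 and 1.83 FPKM with dox, so that the peak of –dox cells at 48 h was not seen. T and Wnt3 were also lower with dox at 48 h, at 0.390 and 0.587 FPKM, and the primitive streak and mesoderm markers summed to 3.13 FPKM against 13.3 FPKM without dox.

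Fgf15 stood at 0.385, 2.91, 1.39 and 0.203 FPKM with dox. It was 2.48-fold higher than in –dox cells at 48 h and 5.04-fold lower at 96 h, both at levels near 1 FPKM. Fgfr1 stood at 31.4, 29.1, 25.9 and 36.1 FPKM and was within 1.67-fold of –dox cells at all times. Fgfr2 stood at 1.22, 8.37, 14.01 and 39.0 FPKM, lower than without dox at 0 h by 2.7-fold, at 24 h and 48 h as given above, and by 1.56-fold at 96 h. In both arms Fgfr2 was higher the longer the cells had differentiated, with 39.0 FPKM in 96 h +dox as its highest value with dox.

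**Figure D2:**
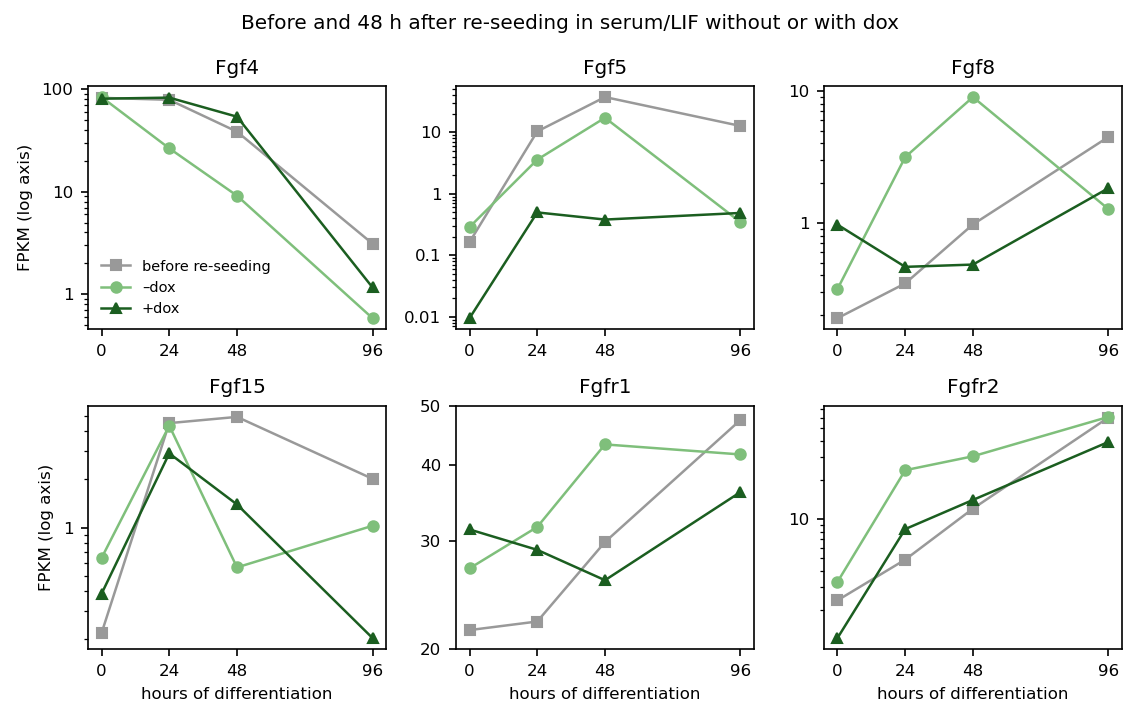
FPKM on a log axis against hours of differentiation for each member, before re-seeding (grey squares) and after 48 h in serum/LIF without dox (light green circles) or with dox (dark green triangles), with 1 combined value per point and each panel on its own scale. At 48 h Fgf4 is at 9.14 FPKM without dox and 54.0 with dox, while Fgf5 is at 17.2 and 0.381 FPKM.

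The make-up of the ligands followed these values. In 48 h –dox Fgf4 was 19% of the summed FPKM of the 18 ligands, Fgf5 35.8% and Fgf8 18.7%. In 48 h +dox Fgf4 was 83.5%, Fgf5 0.589% and Fgf8 0.747%, close in Fgf4 share to the 85.3% of the 0 h cells. The ratio of Fgf4 to Fgf5 was 0.531 without dox and 142 with dox. At 96 h the ligand sums were 7.18 FPKM without dox and 13.7 FPKM with dox, and Fgf4 made up 8.1% and 8.5%. The ratio of Fgfr1 to Fgfr2 was 1.34 without and 3.47 with dox at 24 h, against 0.685 and 0.926 at 96 h.

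**Figure D3:**
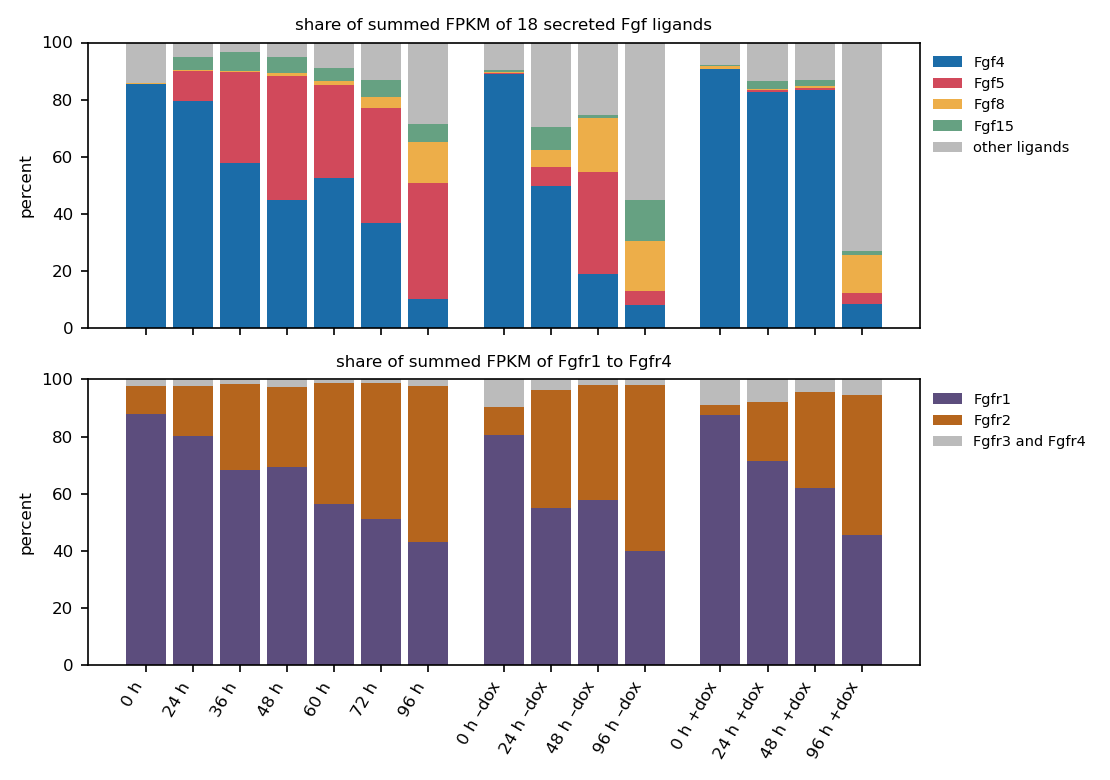
Stacked bars of the percent of summed FPKM for 18 secreted Fgf ligands (top) and for Fgfr1 to Fgfr4 (bottom) in the 15 conditions, grouped as time course, –dox and +dox. Fgf4 falls from 85.3% at 0 h to 9.99% at 96 h, and holds 83.5% in 48 h +dox against 19% in 48 h –dox.

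None of the 18 adaptor and Ras-ERK genes passed the 2-fold rule between +dox and –dox cells at 0, 24, 48 or 96 h. The shares of all genes changed were 9.23%, 6.27%, 13% and 17.7% at these times. Among the 14 feedback inhibitors and targets, the genes past the rule differed between times. With only 14 genes, their counts from 24 h on are not far from those shares. At 0 h, 5 were lower with dox (Spry2, Spry4, Dusp6, Etv1 and Egr1), at 24 h only Spred3 was lower, at 48 h 3 were higher (Spry4, Etv4 and Etv5) and at 96 h 4 were higher (Spry1, Spry4, Dusp4 and Etv5). The median log2 ratios were -0.54, -0.25, 0.23 and 0.52, beside 0.04, 0.02, -0.02 and -0.01 for all genes.

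Etv4 and Etv5, ETS factors induced by Fgf signals, were lower at 96 h than at 0 h, as Fgf4 was. Etv5 stood at 106 FPKM at 0 h, 143 at 36 h, 67.4 at 60 h and 15.9 FPKM at 96 h. At 48 h Etv5 was 57.2 FPKM without dox and 118 FPKM with it, and Etv4 was 10.2 and 42.3 FPKM. Spry4 had its lowest value of the time course at 0 h, at 0.446 FPKM, where Fgf4 was highest. It then stood at 13.9 FPKM at 24 h, 11.3 at 48 h, 5.16 at 72 h and 1.15 FPKM at 96 h. Among the cells re-seeded at 0 h Spry4 stood at 41.5 FPKM without dox and 11.5 FPKM with it. Of the list, 9 of 14 were higher in 0 h –dox than at 0 h, where 2i was present, beside 22.1% of all genes changed, while Fgf4 differed by 1.02-fold.

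**Figure D4:**
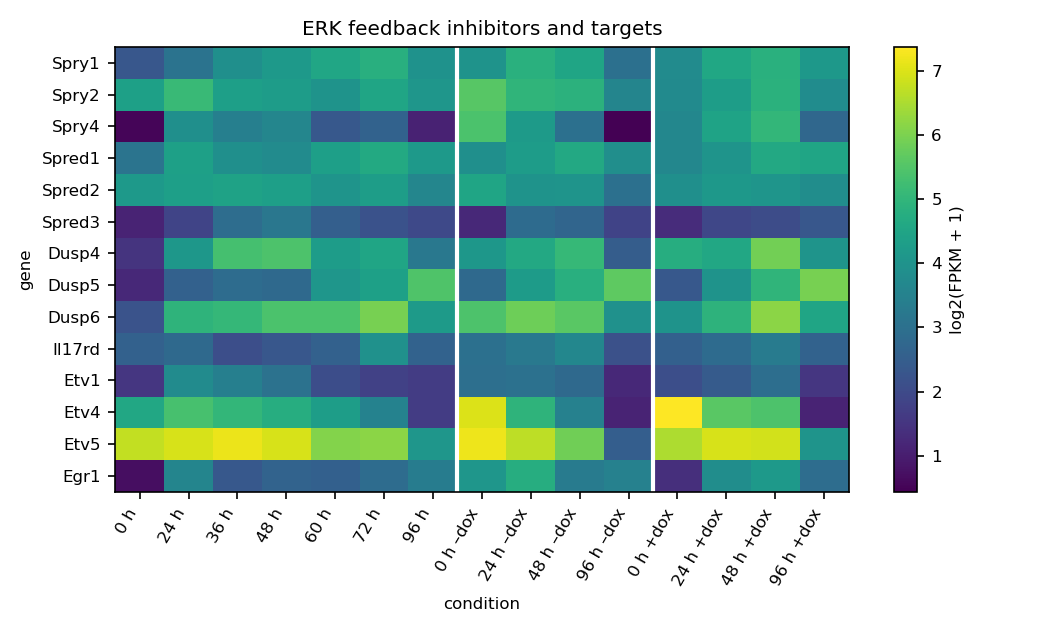
Heat map of log2(FPKM + 1) for 14 ERK feedback inhibitors and targets (rows) in the 15 conditions (columns), with white lines between the time course, –dox and +dox. Dusp6, Spry4 and Egr1 are dark at 0 h and brighter at 24 h, and Etv5 dims by 96 h in all 3 sets, to 15.9, 4.73 and 15.3 FPKM.

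The genes most like each member were sought by Pearson's r of log2(FPKM + 1) over the 15 conditions among 9069 genes that reached 10 FPKM, as a description with no p. The conditions share cells, medium and time, so high values are common. For Fgf4 these were Psma8 (r = 0.974), Hsf2bp (0.965) and Rnf17 (0.964), genes known from germ cells. For Fgf5 they were Sox3 (0.965), Gmps (0.949) and Mid1ip1 (0.935), and for Fgf8 Synpo2l (0.860), BC023829 (0.829) and Gbp5 (0.825). For Fgf15 they were Hes6 (0.926), Ccno (0.922) and Ppp2r3c (0.921). For Fgfr1 they were Cntfr (0.939), Dhrs3 (0.929) and Fbf1 (0.921), and for Fgfr2 Notch2 (0.965), Dzip1l (0.964) and Bag2 (0.957). Sox3, a SoxB1 factor, stood at 0.959 FPKM at 0 h, 28.0 at 48 h, 10.5 after re-seeding at 48 h without dox and 2.31 FPKM with it.

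Among the members themselves, r over the 15 conditions was highest for Fgf8 and Fgfr1 (0.80) and for Fgfr1 and Fgfr2 (0.79), followed by Fgf5 and Fgf15 (0.70). It was lowest for Fgf4 and Fgfr2 (-0.83) and for Fgf4 and Fgfr1 (-0.77). Fgf4 and Fgf5 had an r of -0.01, and over the 7 time course conditions of -0.25. Fgf4 and its neighbour Fgf15 had an r of 0.27.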

How the data were processed

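Polyadenylated RNA of 30 samples (15 conditions, 2 replicates each) was sequenced on an Illumina HiSeq. The authors mapped reads to mm10 with TopHat 2.0.14, quantified Gencode M4 transcripts with Cufflinks 2.2.1 (Cuffquant) and combined the replicates with Cuffdiff, and the deposited FPKM values are 1 per gene and condition. The library normalization is not given in the sources used here. The table also has 5 columns of the authors' calls (genes induced, repressed or unresponsive after dox, and groups of dynamic genes), which were not used.

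Values were used as deposited, since median-ratio factors over 14518 genes ran from 0.99 to 1.03. Ratios of single genes had no pseudocount, and medians of lists and pattern searches used FPKM + 1. Named are the 6 members, genes of lists written from general knowledge, the 3 genes most like each member and the neighbours of Fgf4 and Fgf15. The members and lists were chosen with earlier results of these data known, and the promoter motifs with the sequences seen. Positions are from Gencode M21, in which 94.9% of symbols were found. Python 3.11.15, numpy 2.4.6, pandas 2.3.3 and matplotlib 3.10.9 were used, and the counting and pattern search were tested on simulated data. Alternative minima, ratios, pseudocounts and scalings were tried. No sample was left out, because no replicate values are held in the table.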

Additional observations from a re-analysis of the deposited data

Results flagged for a closer look

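In 2 members the same contrast went opposite ways at different hours of differentiation, with every change past 2-fold. With 1 combined value per condition, the difference between the times was not tested. Fgf8 in –dox cells against the cells before re-seeding had a log2 ratio of 3.18 at 24 h and 3.21 at 48 h, but -1.82 at 96 h. Fgf15 in +dox against –dox cells had a log2 ratio of 1.31 at 48 h and -2.33 at 96 h. The Fgf15 values behind these ratios lie between 0.203 and 1.39 FPKM, and with 1 FPKM added neither ratio reached 2-fold.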

How the results depend on the processing

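No paired analysis was possible because the table holds 1 combined value per condition, and for the same reason no replicate could be left out. Over the 6 intervals of the time course members changed 9 times, with and without dox 11 times over 4 times, and after re-seeding without dox 12 times. From 0 to 96 h, 28 of the 63 pathway genes that reached 1 FPKM changed (44.4%, beside 33.3% of all genes). With a minimum of 5 FPKM in the higher value, these counts were 5 for the time course, 6 for dox and 18 for pathway genes. With 1 FPKM required in both values, they were 5 for dox and 7 after re-seeding. A ratio of at least 1.5 gave 17 in the time course, and a ratio of at least 3 gave 4 in the time course, 7 for dox and 18 pathway genes. Leaving out 0 h, an alternative added after seeing the data, gave 6 time course changes. Of the 18 most alike genes, 11 were shared with log2(FPKM + 0.1), 2 with Spearman's rho and 1 with the 7 time course conditions alone, so those names depend on the measure and on the conditions used. Of 810 ratios of members under the 9 alternatives, 740 stayed on the same side of the rule, 52 dropped below it, 18 passed it and none that had passed changed sign. Median-ratio scaling moved Fgf4 at 96 h with dox just past 2-fold, at a log2 ratio of 1.01, and scaling by the sum moved Fgf15 in 96 h –dox against 96 h past it, at -1.03. The number of reads is not known, so values below about 1 FPKM have unknown precision.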

Other observations

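Of the 23 heparan sulfate proteoglycan and enzyme genes, whose products present Fgf ligands to their receptors, 6 rose and 2 fell from 0 to 96 h among 20 that reached 1 FPKM, beside 33.3% of all genes changed, a share not far from that of the list. Hspg2, the basement membrane proteoglycan perlecan, rose from 17.3 to 69.8 FPKM and Gpc1, a glypican, from 5.52 to 22.9 FPKM, while Sdc4, a syndecan, fell from 89.7 to 26.8 FPKM. With dox against without, 4 were higher at 0 h, none changed at 24 h, Sulf1 was lower at 48 h, and Gpc3 and Glce were lower at 96 h. The shares of all genes changed were 9.23%, 6.27%, 13% and 17.7% at these times.

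The Fgf homologous factors stay inside the cell and do not act through Fgf receptors. Of the 4, 2 reached 1 FPKM at 0 or 96 h and only Fgf13 rose, beside 33.3% of all genes changed. Its 96 h value was 3.66 FPKM, against 0.733 FPKM before withdrawal. Fgf11 did not pass the rule in that comparison, with 2.58 against 1.46 FPKM. Both genes were highest at 60 h, with 5.33 FPKM for Fgf13 and 3.02 FPKM for Fgf11. Fgf12 and Fgf14 stayed at or below 0.303 FPKM in all 15 conditions. Fgf21, an endocrine ligand, stood at 3.08 FPKM before re-seeding at 96 h, at 0.158 FPKM after it without dox and at 1.92 FPKM with dox.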
